A study of Mus musculus with 4 samples.

Results

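The guanylate-binding proteins (GBPs) examined here were the 8 mouse genes Gbp2, Gbp3, Gbp4, Gbp5, Gbp6, Gbp7, Gbp8 and Gbp9, taken by symbol from the 34745 gene identifiers of the deposited count table. All 8 had a row in the table and all 8 passed the filter on low counts, among 13108 genes tested. RNA came from primary macrophages grown from the bone marrow of C57BL/6 mice, and all 4 libraries were from cells transfected with a small interfering RNA (siRNA) and given lipopolysaccharide (LPS), a bacterial cell wall component. In 2 libraries the siRNA was Acly-E14 and in 2 it was a control siRNA. Acly encodes ATP citrate lyase, which makes cytosolic acetyl-CoA. The sources used here do not give the LPS dose, the times, the age of the mice or whether libraries of a group came from separate animals or cultures, so a p-value here reflects the spread between these libraries, which may be technical. No library without LPS was part of the series analysed here, so the values are levels in stimulated cells and not a response to LPS.

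GBPs are large GTPases of the dynamin superfamily that interferons induce strongly, with interferon gamma as the best known inducer. LPS induces them in macrophages largely through the interferon beta that the cells release, which acts through STAT and IRF factors. The proteins assemble on pathogen vacuoles and on bacteria in the cytosol, where they promote membrane damage and give LPS and DNA access to the caspase-11 and AIM2 inflammasomes. Some of them, among them Gbp2 and Gbp5, end in a signal for prenylation, a lipid anchor that holds them on membranes. Mouse GBP genes lie in 2 clusters, one on chromosome 3 and one on chromosome 5.

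The siRNA difference was small for most members and did not go one way. Gbp4 rose 1.44-fold in Acly-E14 siRNA libraries, while Gbp2 and Gbp3, the members with the highest levels per length, were lower. Gbp2 fell by 14.3% and Gbp3 fell by 13.3%. The other 5, Gbp5, Gbp6, Gbp7, Gbp8 and Gbp9, were not called. The test was edgeR's quasi-likelihood F test over all genes, with libraries scaled by trimmed-mean (TMM) factors and a call at an adjusted p under 0.05. Thus 3 of 8 members were called, 1 higher and 2 lower, where 33.2% of all tested genes were called, 17.3% higher and 15.9% lower. Of the 3 calls, 1 was left (Gbp4) without control library 1 or without either library of the Acly-E14 siRNA group, and without control library 2 those called were Gbp4 and Gbp8. Over all genes 4354 were called, and 2157 without control library 1, 2864 without Acly-E14 siRNA library 1 and 2088 without Acly-E14 siRNA library 2. The median log2 change of the members was 0.071, against 0.0027 over all genes, and the median size of the change without its sign was 0.153 against 0.289. The range ran from -0.22 for Gbp2 to 0.53 for Gbp4.

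In GENCODE M21 on mm10, the build named in the submitters' processing notes, the chromosome 3 cluster lies on the plus strand and holds Gbp5 (142493978 to 142522344), Gbp7 (142530342 to 142550149), Gbp3 (142560026 to 142573209) and Gbp2 (142620602 to 142638008), with Gbp2b between Gbp3 and Gbp2. The chromosome 5 cluster lies on the minus strand and holds Gbp8 (105014150 to 105139540), Gbp9 (105077630 to 105139539), Gbp4 (105115767 to 105139586) and Gbp6 (105270702 to 105293698). Gbp10 and Gbp11 are in the chromosome 5 cluster as well. In the annotation the models of Gbp4, Gbp8 and Gbp9 reach to a common exon at their upstream end. Gbp4 and Gbp8 share 61 bases of it, and Gbp9 shares 60 bases with each of them. Beyond this exon the 3 genes use separate exons. The exons are pooled over all transcripts of a gene, so not every transcript need begin at the common exon.

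**Figure D1:**
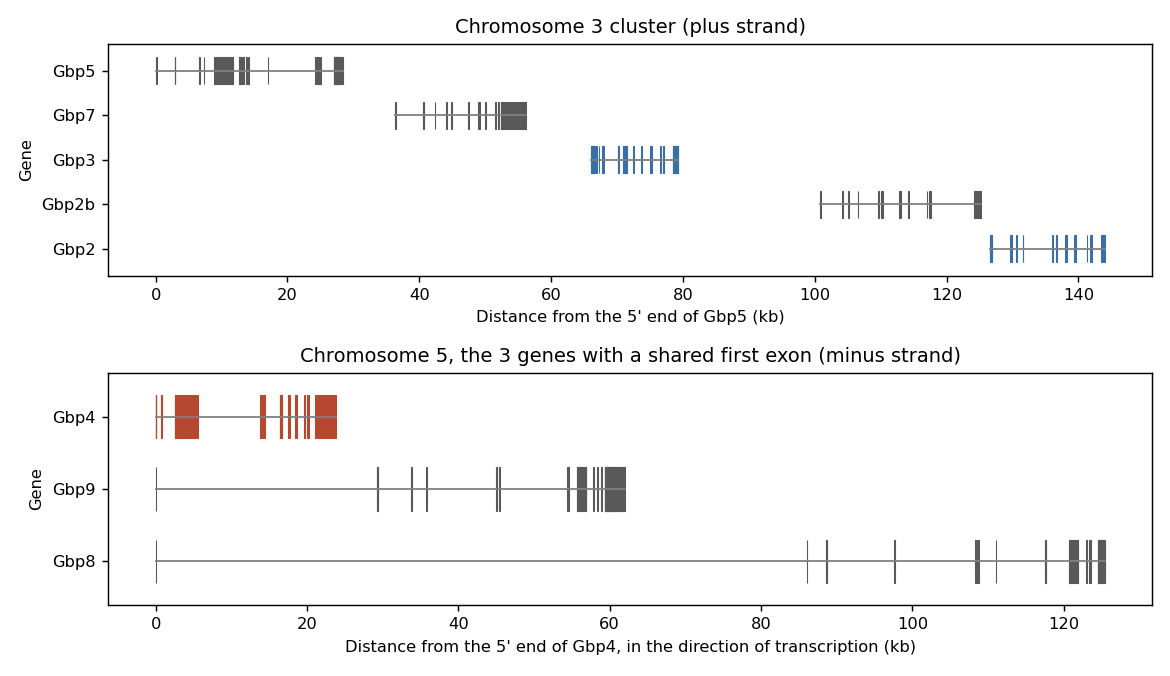
Gene models of GENCODE M21, with exons of all transcripts as boxes and distance in kilobases on the x axis. The chromosome 3 cluster is at the top, and the 3 chromosome 5 genes with a common upstream exon are at the bottom. Red marks the gene called higher (Gbp4), blue the genes called lower (Gbp2 and Gbp3) and grey those not called. The models of Gbp4, Gbp9 and Gbp8 share their upstream exon and then use exons at increasing distance. Not every transcript need begin at that exon.

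Promoter windows are shown for the chromosome 3 members only, since the source used held none for Gbp4, Gbp6, Gbp8 and Gbp9. Whether promoter sequence bears on the calls was not tested. The 250 bases before the start site were read from RefSeq promoters (GRCm38.p6, which has mm10 coordinates), and 4 of the 8 members matched that table, Gbp3 with 2 start sites, for a total of 5 windows. The element searched was the core of the interferon-stimulated response element (ISRE), GAAA followed by any 2 bases and GAAA, on either strand, where STAT and IRF complexes bind. It was found in 4 of the 5 windows, 1 for each of the 4 genes, against 2.98% of 32851 windows of the same length over all genes. Capitals mark the matches in the sequences below, which are written 5′ to 3′ on the plus strand.
Gbp2, chr3:142620413-142620662: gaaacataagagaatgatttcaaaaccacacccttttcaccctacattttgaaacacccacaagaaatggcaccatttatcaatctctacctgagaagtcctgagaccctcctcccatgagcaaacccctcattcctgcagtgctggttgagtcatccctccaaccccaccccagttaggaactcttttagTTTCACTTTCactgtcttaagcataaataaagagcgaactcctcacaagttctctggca
Gbp3, chr3:142559794-142560043: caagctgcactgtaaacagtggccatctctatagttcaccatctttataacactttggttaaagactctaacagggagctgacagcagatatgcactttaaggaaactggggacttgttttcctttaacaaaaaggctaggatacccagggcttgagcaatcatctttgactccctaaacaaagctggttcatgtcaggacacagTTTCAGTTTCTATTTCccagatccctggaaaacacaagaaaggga
Gbp5, chr3:142496684-142496933: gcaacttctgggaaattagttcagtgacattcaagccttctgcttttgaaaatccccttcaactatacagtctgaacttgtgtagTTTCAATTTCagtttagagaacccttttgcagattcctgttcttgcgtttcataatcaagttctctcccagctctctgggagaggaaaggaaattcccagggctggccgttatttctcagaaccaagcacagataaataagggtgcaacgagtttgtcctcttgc
Gbp7, chr3:142530086-142530335: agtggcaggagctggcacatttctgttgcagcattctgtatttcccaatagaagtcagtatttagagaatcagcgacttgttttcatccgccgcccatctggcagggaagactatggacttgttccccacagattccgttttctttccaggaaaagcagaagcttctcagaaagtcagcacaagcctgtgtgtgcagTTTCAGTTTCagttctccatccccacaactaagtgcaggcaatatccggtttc

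The match begins 59 bases before the RefSeq start site in Gbp2, 45 bases before it in Gbp3, 53 in Gbp7 and 165 in Gbp5. These start sites are not the GENCODE starts given above. The whole Gbp5 window (142496684 to 142496933) lies inside the GENCODE span of Gbp5, and the Gbp2 match lies inside that of Gbp2. In Gbp3 there are 2 overlapping matches, drawn as 1 run of capitals. Gbp2b, the remaining chromosome 3 gene with a window, has 1 match, at 137 bases. The interferon gamma-activated site (GAS), searched as TTCNNNGAA, which reads the same on both strands, was present in the windows of Gbp5 and Gbp7, with 2 matches each, and in 7.02% of all windows. No GAS match overlapped an ISRE match, and the windows of Gbp2, Gbp3 and Gbp2b held no GAS match. A match of letters is a description and shows no binding.

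Libraries held 21023197 to 21837806 counts, so that counting error is small for every member except Gbp8. Acly itself fell by 21.7% (log2 -0.35, SE 0.060, edgeR adjusted p = 0.0086), and leaving out control library 1 ended that call (0.058). Macrophage markers were present, with 15 of 15 tested, 7 called lower and 3 higher. Over all tested genes, 15.9% were called lower and 17.3% higher. The macrophage markers summed to 20685 and 19109 CPM in controls against 18386 and 18644 CPM with Acly-E14 siRNA, without overlap. CPM are counts scaled to a common library size with TMM factors. Fibroblast and stroma markers were called higher for 13 of 15, with 2476 and 3566 CPM in controls against 5818 and 7159 CPM with Acly-E14 siRNA. Endothelial markers summed to 307 and 296 CPM in controls against 129 and 124 CPM with Acly-E14 siRNA, mostly Kdr, while Emcn and Cldn5 had 0 counts. Neutrophil markers summed to 93.1 and 101 CPM in controls against 140.0 and 140.3 CPM with Acly-E14 siRNA, mostly Csf3r. Of the 3 tested, Csf3r and S100a8 were called higher and S100a9 lower, with 27 and 24 counts in controls against 3 and 1. T and NK cell markers summed to 18.7 to 23.5 CPM in the 4 libraries, mostly Lck at 18.2 to 22.5 CPM. Of the 14, 6 had 0 counts, among them Cd3e and Ncr1. Higher genes were 52.0% of all calls with TMM scaling and 65.8% with library totals alone, which move the median of all genes by 0.091 on the log2 scale. The part of these markers in the Gbp values was not tested. In RNA from a whole culture, fewer cells of a type and less RNA per cell cannot be told apart.

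Per gene length, the order of the members was Gbp2, Gbp3, Gbp5, Gbp7, Gbp9, Gbp6, Gbp4 and Gbp8. Levels between genes are given as FPKM, counts scaled by gene length and by library size. Gbp2 stood at 1106 and 1176 FPKM in controls and 1038 and 1046 FPKM in Acly-E14 siRNA libraries, which placed it 34th by mean FPKM among 18202 genes with a length. Its share of the summed FPKM of the 8 members was 59.6% and 61.3% in controls against 56.6% and 58.1%. Gbp3 followed at 305 to 345 FPKM, Gbp5 at 184 to 227 and Gbp7 at 111 to 131. None of these 4 ranges overlapped another. Gbp9 (40.3 to 47.2 FPKM) and Gbp6 (34.4 to 36.7) came next, also apart, and Gbp4 ranged from 20.3 to 33.4. In control libraries Gbp4 lay at 20.3 and 22.2 FPKM, well below Gbp6 at 35.5 and 36.0. In Acly-E14 siRNA libraries Gbp4 stood at 33.4 and 31.9 against 36.7 and 34.4 for Gbp6, so these levels lay closer together. The gap depends on the lengths used. With GENCODE M21 lengths the control means were 25.2 FPKM for Gbp4 and 53.3 FPKM for Gbp6, which lie farther apart. Gbp8 was far below the rest at 1.09 to 2.12 FPKM.

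**Figure D2:**
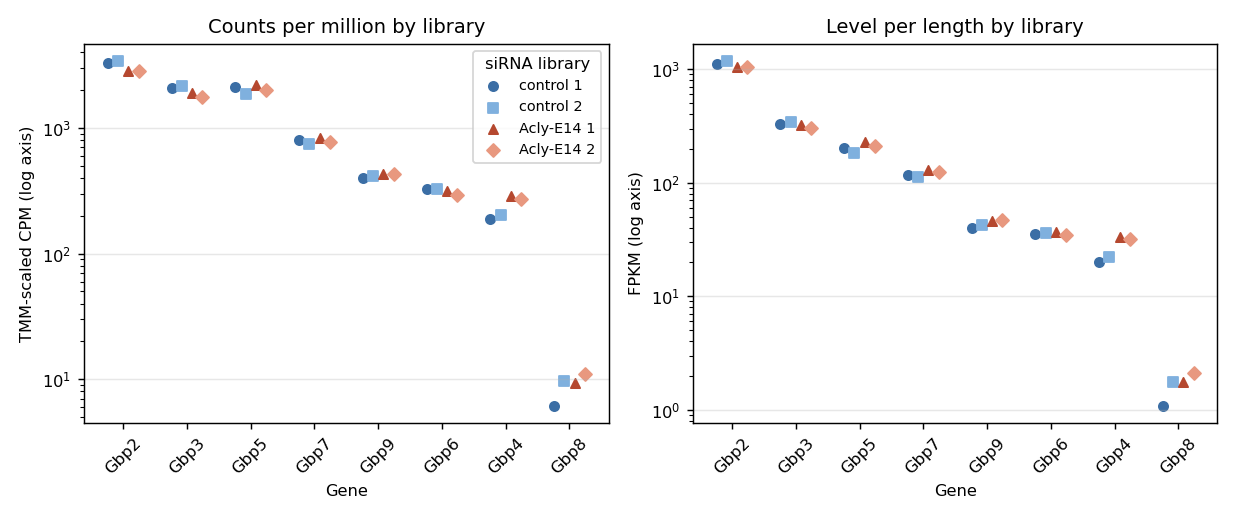
Level of each member in each of the 4 libraries as TMM-scaled CPM (left) and as FPKM (right), both on log axes, with 1 symbol per library. The members span from 1.09 FPKM (Gbp8, lowest) to 1176 FPKM (Gbp2, highest), and in Gbp4 both Acly-E14 siRNA libraries stand above both controls.

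Gbp4 (ENSMUSG00000079363), which lies on chromosome 5, was the only one of the 8 called higher. It had 3790 and 4322 counts in controls against 6330 and 5978 with Acly-E14 siRNA. Scaled, these are 188 and 202 CPM against 290 and 273 CPM. Both treated libraries lay above both controls by a margin several times the spread within either group. The mean went from 195 ± 9.82 to 281 ± 11.7 CPM (SD, n = 2), a log2 change of 0.53 (SE 0.063, edgeR adjusted p = 0.0031). The call was made under all 11 alternatives run, with log2 changes from 0.47 to 0.62. Among these, the looser limit of an adjusted p under 0.1 reuses the main fit and could not end a call. Of the members' counts, Gbp4 took 2.04% and 2.22% in controls against 3.27% and 3.23% with Acly-E14 siRNA.

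Ratios of counts within a library do not depend on how libraries are scaled. For Gbp4 over Gbp9, whose models share an upstream exon, the ratio was 0.470 and 0.491 in controls against 0.676 and 0.631 with Acly-E14 siRNA. For Gbp4 over Gbp6 it was 0.572 and 0.619 against 0.912 and 0.929. The counts of Gbp6 are uncertain, since the gene shares 1726 exon bases with the gene model Gm43302. Gbp4 over Gbp2 gave 0.0576 and 0.0594 against 0.101 and 0.0958. In all 3 ratios the groups were apart, with Gbp4 relatively higher by 1.36-fold, 1.55-fold and 1.68-fold. The smallest two-sided p of an exact permutation test on 4 libraries, 2 per group, is 0.333, so the ratios stand as descriptions.

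**Figure D3:**
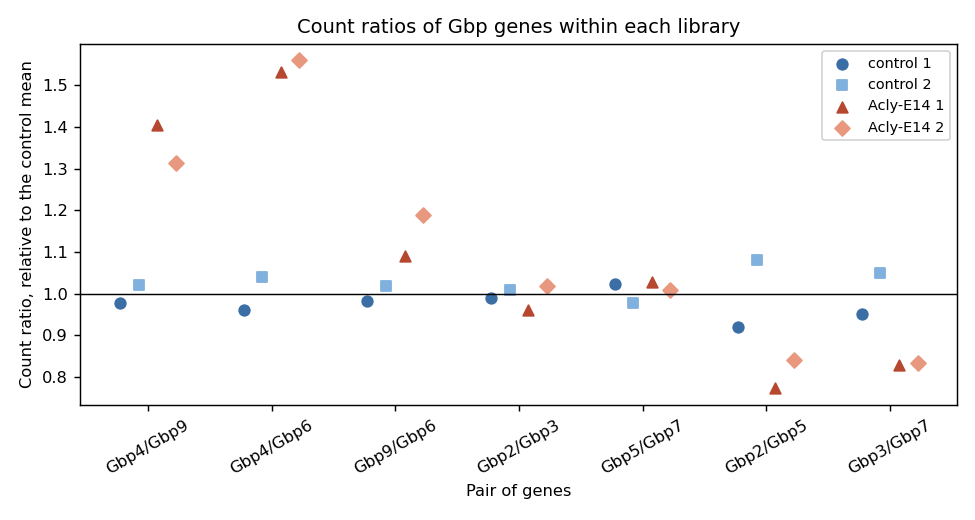
Ratio of the counts of pairs of Gbp genes in each library, divided by the mean ratio of the 2 control libraries (linear axis). The counts of Gbp6 are uncertain, since the gene overlaps the gene model Gm43302. Ratios with Gbp4 as numerator, and that of Gbp9 over Gbp6, are higher in both Acly-E14 siRNA libraries, those of Gbp2 over Gbp5 and Gbp3 over Gbp7 are lower in both, and those of Gbp2 over Gbp3 and Gbp5 over Gbp7 overlap.

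Gbp9, a chromosome 5 member, had 8059 and 8801 counts in controls against 9367 and 9470 with Acly-E14 siRNA. As CPM these are 400.3 and 412 against 429 and 433, and the groups did not overlap although they lay close. The log2 change was 0.085 (SE 0.050, edgeR adjusted p = 0.24). It was called with library totals alone (log2 0.18, 0.042) and with limma on log2(FPKM + 1) (0.17, 0.047), neither of which uses TMM factors.

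Gbp8 was the member with the fewest counts, 124 and 209 in controls against 205 and 242 with Acly-E14 siRNA. Exact 95% Poisson intervals, which cover counting error only, were 103 to 148 and 182 to 239 for the controls, so the 2 controls differed from each other beyond counting error. The log2 change was 0.36 (SE 0.23, edgeR adjusted p = 0.29) and the groups overlapped. Without control library 2 it was 0.73 (adjusted p = 0.049), and without control library 1 it was 0.059 (0.83).

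Gbp6 had 329 and 326 CPM in controls against 318 and 294 with Acly-E14 siRNA. The log2 change was -0.10 (SE 0.059, edgeR adjusted p = 0.24), and -0.0092 with library totals alone. Its counts are uncertain, because the gene overlaps Gm43302, a model that spans both Gbp10 and Gbp6 and shares 1726 exon bases with Gbp6 and 1792 with Gbp10. Gm43302 itself had 202 and 204 CPM in controls against 196 and 188 CPM with Acly-E14 siRNA (log2 -0.080, edgeR adjusted p = 0.30). Summed over Gbp6, Gbp10 and Gm43302, the level was 538 and 539 CPM in controls against 528 and 497 CPM with Acly-E14 siRNA.

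Gbp2 (ENSMUSG00000028270), whose protein is prenylated and coats vacuoles of Toxoplasma, had the largest level of the 8 and the largest difference in CPM. Its counts were 65781 and 72701 in controls against 62620 and 62402 with Acly-E14 siRNA, or 3268 and 3400.3 CPM against 2865 and 2850.1 CPM. Both treated libraries lay below both controls, close to each other. The mean went from 3334 ± 93.9 to 2858 ± 10.7 CPM (SD, n = 2), a log2 change of -0.22 (SE 0.058, edgeR adjusted p = 0.032). Leaving out any 1 of the 4 libraries ended the call (adjusted p from 0.084 to 0.14), as did the fits with library totals alone (log2 -0.13, 0.0999) and with limma on log2(FPKM + 1) (-0.13, 0.13).

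Gbp3 (ENSMUSG00000028268) was the other member called lower. Its level was 2096 and 2139 CPM in controls against 1895 and 1779 CPM with Acly-E14 siRNA, again without overlap. The log2 change was -0.21 (SE 0.060, edgeR adjusted p = 0.045). It too was not called when any 1 library was removed (adjusted p from 0.076 to 0.21), with library totals alone (log2 -0.11, 0.14) and with limma on log2(FPKM + 1) (-0.11, 0.14). The count ratio of Gbp2 to Gbp3 was 1.56 and 1.59 in controls against 1.51 and 1.60 with Acly-E14 siRNA, so the groups overlapped.

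Gbp5, which is prenylated and has been linked to NLRP3 inflammasome assembly, had 2120.1 and 1875 CPM in controls against 2210.4 and 2024 CPM with Acly-E14 siRNA. The groups overlapped. The log2 change was 0.084 (SE 0.083, edgeR adjusted p = 0.48), and -0.0038 without control library 2. Gbp7, the neighbour of Gbp5, varied alike. It stood at 804 and 744 CPM in controls against 834 and 778 CPM with Acly-E14 siRNA (log2 0.058, SE 0.067, edgeR adjusted p = 0.54). In the annotation Gbp7 shares 637 exon bases with a pseudogene, Gm43802. The count ratio of Gbp5 to Gbp7 was 2.52 to 2.65 over the 4 libraries. Gbp3 over Gbp7, in contrast, was 2.61 and 2.88 in controls against 2.27 and 2.29 with Acly-E14 siRNA.

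**Figure D4:**
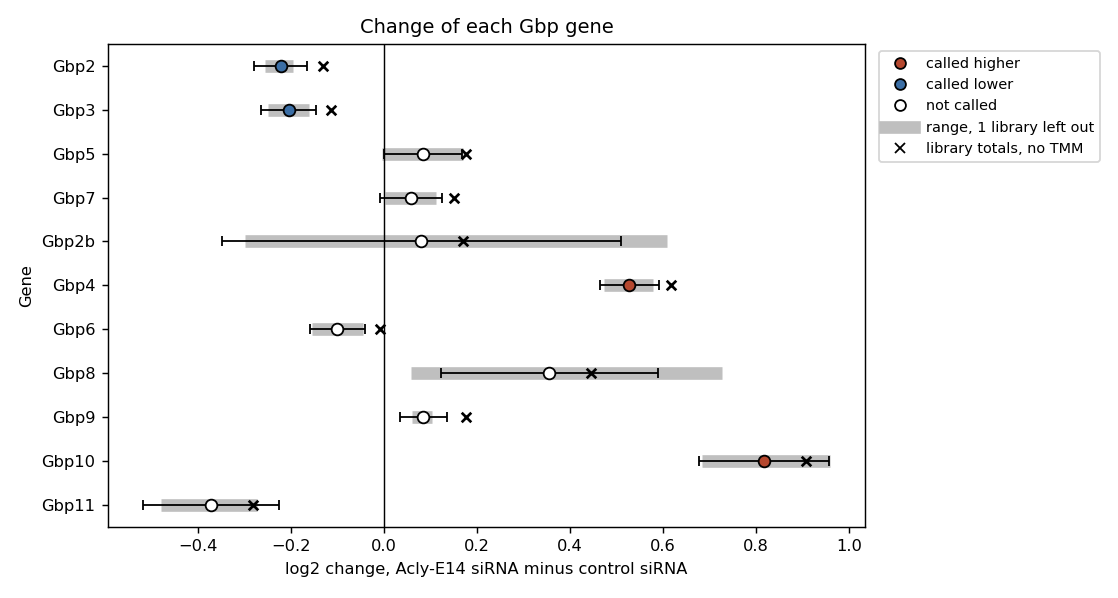
Log2 change of each Gbp gene (points, x axis) with its standard error (bars), the range when 1 library at a time was left out (grey bands) and the value with library totals in place of TMM factors (crosses). Gbp4, Gbp8, Gbp9 and Gbp10 lie to the right of 0 throughout, and Gbp2, Gbp3, Gbp6 and Gbp11 to the left throughout. The bands of Gbp5 and Gbp2b cross 0, as does the standard error bar of Gbp7.

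Groups did not overlap in CPM for 5 of the 8 members, Gbp4 and Gbp9 higher and Gbp2, Gbp3 and Gbp6 lower. The same was true of 70.6% of all tested genes, 35.3% in each direction. Summed over the cluster, the 4 chromosome 3 members had 8288 and 8159 CPM in controls against 7804 and 7430.4 CPM with Acly-E14 siRNA, a log2 ratio of -0.11. The 4 chromosome 5 members had 924 and 950.02 CPM against 1045 and 1010.4 CPM, a log2 ratio of 0.13, to which Gbp4 contributed most. With library totals alone the 2 ratios were -0.019 and 0.22. All 8 together summed to 9212 and 9109 CPM in controls against 8849 and 8441 CPM with Acly-E14 siRNA, a log2 ratio of -0.083 without overlap. With library totals alone the log2 ratio was 0.0077 and the groups overlapped, at 0.882% and 0.892% of control counts against 0.907% and 0.876%.

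Among the GBP genes that are not members, Gbp10 rose from 7.70 and 9.31 CPM to 14.2 and 15.8 CPM (log2 0.82, SE 0.14, edgeR adjusted p = 0.0088). Its counts were 155 and 199 in controls against 310 and 346 with Acly-E14 siRNA, and removing Acly-E14 siRNA library 2 ended the call (0.051). Gbp11 had 10.1 and 8.93 CPM in controls against 7.87 and 6.81 CPM with Acly-E14 siRNA (log2 -0.37, edgeR adjusted p = 0.10). Gbp2b had only 9 to 18 counts per library and a log2 change of 0.080 (SE 0.43, adjusted p = 0.90 by edgeR).

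How far reads could be confused between family members was read from the GENCODE M21 transcripts. Of all stretches of 50 bases in Gbp4 transcripts, 7.53% also occur in another Gbp gene or Gm43302, and for Gbp2 and Gbp3 the shares were 2.03% and 3.75%. Gbp5 shared none with them. Gbp9 shared 8.05% and Gbp8 18.1%. Gbp6 stood apart with 70.7%, as did Gbp10 with 84.1%. Gbp6 alone holds 73.3% of all Gbp10 stretches. The 3 called members therefore lie mostly in sequence of their own, while Gbp6 and Gbp10 do not. The lengths implied by the deposited FPKM were longer than the merged exons in GENCODE M21 for all 8 members, for example 8901 against 7494 bases for Gbp4 and 9993 against 6637 for Gbp5. The gene models behind the counts, or the definition of length, therefore differed from those used here, and overlaps in the original models were not analysed here. The order of the 8 levels was the same with either length.

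Genes around the GBPs were read from lists of related function. The counts of calls in these lists stand against 33.2% called over all tested genes, 17.3% higher and 15.9% lower. Immunity-related GTPases (IRGs) act with GBPs on vacuoles. The list used for them also held Gvin1, the gene of a very large inducible GTPase (log2 0.060, not called). Among 9 measured genes of this list, 3 fell, 0 rose and 6 were not called (median log2 change -0.16). Irgm1, a regulator of the family, had a mean of 1568 CPM in controls and of 1116 CPM with Acly-E14 siRNA (log2 -0.49, SE 0.055, edgeR adjusted p = 0.0027). Ifi47 (log2 -0.38) and Irgm2 (-0.27) fell as well, and Igtp had a change of -0.16 (adjusted p = 0.057 by edgeR). Igtp was called lower with the replicate block (0.024), which called 5 of the list, and by DESeq2 (0.0018). Removing control library 1 ended the calls of Ifi47 (adjusted p = 0.054) and Irgm2 (0.093). Irgm2 was also not called when control library 2 (0.0502) or library 2 of the Acly-E14 siRNA group (0.082) was removed. Over the 4 fits with 1 library removed, 1 to 3 genes of the list were called, while DESeq2 called 6. No immunity-related GTPase was called higher, while Gbp4 was. The difference between the families was not tested.

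Of 20 tested genes for interferons and the factors that relay them to GBP promoters, 10 fell, 2 rose and 8 were not called, with a median of -0.25. The interferon gamma gene Ifng had 0 counts in all 4 libraries. A count of 3, set here as an approximate upper limit for a count of 0, would be 0.137 to 0.149 CPM. Ifnb1, the interferon beta gene, had 108 and 100 counts in controls against 74 and 58 with Acly-E14 siRNA (log2 -0.73, edgeR adjusted p = 0.043), which did not pass when any 1 library was removed (0.071 to 0.21). Ifnb1 was also not called with library totals alone (edgeR adjusted p = 0.064) or without the filter on low counts (0.062). The kinase gene Tyk2 (log2 -0.56), Irf9 (-0.54), which encodes the DNA-binding subunit of the ISGF3 complex, and Usp18 (-0.37), a brake on interferon receptors, fell under every alternative run. Irf1, a factor that binds interferon-type elements, had a change of -0.29 (edgeR adjusted p = 0.033). It was not called by edgeR with library totals alone (adjusted p = 0.066) or without the filter (0.062), nor by limma on log2(FPKM + 1) (0.074). It did not pass after removal of control library 1 (0.16), of control library 2 (0.052) or of library 2 with Acly-E14 siRNA (0.14). The 2 rises were Socs3, an inhibitor of cytokine receptors (log2 0.28, edgeR adjusted p = 0.010), and Ifnar1, a chain of the type I interferon receptor (0.23, 0.024), named after its value was seen. Socs3 did not pass after removal of control library 1 (0.074), of control library 2 (0.051) or of library 2 with Acly-E14 siRNA (0.053). With these 3 removals in turn, 3, 6 and 3 genes of the list were called lower and 0 higher.

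Genes of the inflammasome pathways that GBPs feed differed among themselves. Of 12 genes, 6 fell, 1 rose and 5 were not called (median log2 change -0.33). The split moved with scaling, to 3 higher and 6 lower with library totals alone and 4 higher and 5 lower with limma on log2(FPKM + 1). Aim2, the cytosolic DNA sensor, went from 87.9 and 127 CPM in controls to 50.3 and 68.4 CPM (log2 -0.86, SE 0.21, edgeR adjusted p = 0.027). It was not called by edgeR without the filter (adjusted p = 0.066) or by limma on log2(FPKM + 1) (0.068). It did not pass after removal of control library 2 (0.092) or of library 1 with Acly-E14 siRNA (0.091). Casp1 (log2 -0.45), Casp8 (-0.47) and Nlrp3 (-0.50) fell under every alternative run. The rise was in Il1b (log2 1.14). Casp4, the gene of caspase-11, had a change of -0.20 (edgeR adjusted p = 0.070), and Gsdmd, which encodes the pore-forming substrate gasdermin D, of 0.12 (0.13). Casp4 was called lower with the replicate block (0.017) and by DESeq2 (0.015), and Gsdmd higher with library totals alone (0.026) and with limma (0.023).

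The prenylation list holds enzymes that make the lipid (Fdps, Ggps1), attach it (Fnta, Fntb, Pggt1b) or process the protein afterwards (Rce1, Icmt, Zmpste24). By edgeR 0 of 8 tested were called, with a median of 0.0035. DESeq2 and the fit with a replicate block called 1 of them, Zmpste24, lower, and library totals alone and limma called 1, Ggps1, higher. Of the 8, 2 had an unadjusted p under 0.05. Zmpste24 had a change of -0.18 (edgeR adjusted p = 0.051), Ggps1 of 0.26 (0.081), Pggt1b, a subunit of the type I geranylgeranyl transferase, of 0.047 (0.75), and Fntb of -0.19 (0.54). In the list of ATG8 conjugation, galectins and vacuole adaptors, machinery that targets GBPs to vacuoles, 6 of 16 fell and 0 rose (median -0.16). The autophagy receptor genes Sqstm1 (log2 -0.44) and Tax1bp1 (-0.36) fell under every alternative run. Optn fell by 0.51 on the log2 scale, and did not pass after removal of control library 1 (adjusted p = 0.0504). Without control library 1, 2 genes of this list were called lower and 1 higher, and without either library of the Acly-E14 siRNA group 3 were called lower and 0 higher.

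**Figure D5:**
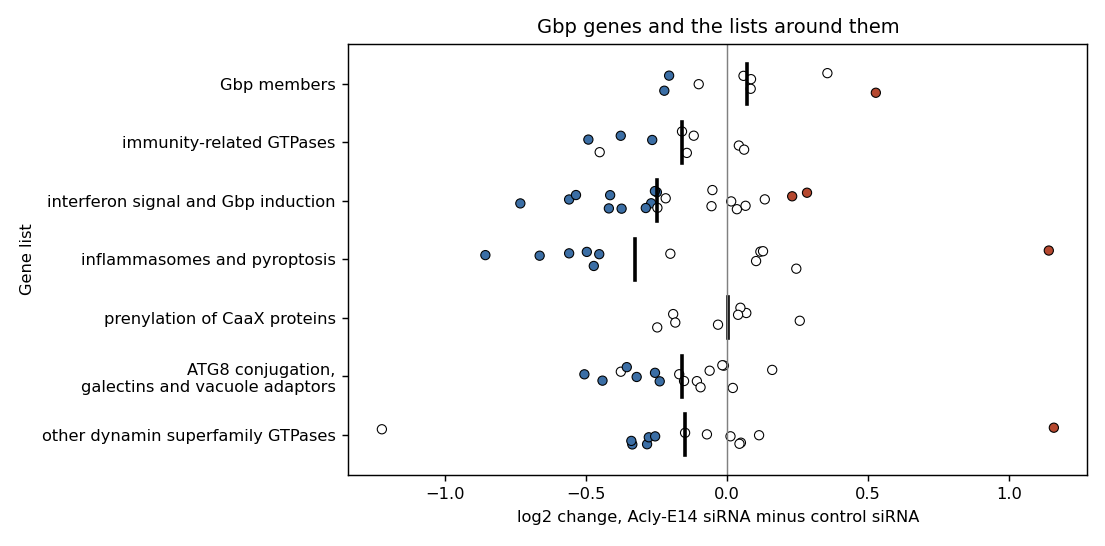
Log2 change (x axis) of each tested gene in the Gbp family and in 6 lists of related genes, with red for called higher, blue for called lower, white for not called and a black bar at the list median. The Gbp median is 0.071, while the medians of 5 of the 6 lists lie between -0.33 and -0.15 and that of the prenylation enzymes near 0.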

How the data were processed

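Gene expression was measured by RNA sequencing in 4 libraries, 2 per group. Per the file headers, the authors deposited raw counts per gene and FPKM values, and the submitters' processing notes name HISAT2, StringTie 1.3.0, edgeR and mm10. The labels' protocols name both a stranded total RNA kit and an mRNA kit. Which program counted reads, with which gene models and strand setting, was not given in the sources used here. Deposited FPKM served only to derive a length per gene, and FPKM was then recomputed from the counts. Of 49103 FPKM values compared, 49103 matched within a relative tolerance of 0.001. A further column, 1 in all, was left out since its name lacks a replicate number. Symbols matched 34267 of 34745 identifiers.

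The test on counts was that of edgeR 4.0.16 under R 4.3.3 (filterByExpr, minimum count 10, TMM, quasi-likelihood F test, Benjamini-Hochberg over 13108 genes). CPM values are TMM-scaled, and SE are those implied by the F statistic. Members and lists were chosen with earlier results of these data known. Named were all members, the other Gbp genes, Acly, and in each list the 4 genes of smallest p with some fixed genes, of which 1 is not reported here. Alternatives were a replicate block, each library left out, DESeq2 1.42.0 and its size factors, library totals, no filter, limma 3.58.1 on log2(FPKM + 1), and an adjusted p under 0.1. The last reuses the main fit with a looser limit, so it could add calls but end none. Lengths from GENCODE M21 were an alternative chosen after seeing the data. The edgeR script was checked on simulated counts. Protein sequences were not used here, so protein features were not compared.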

Additional observations from a re-analysis of the deposited data

How the results depend on the processing

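Over all genes, 4354 were called, and 2088 to 3215 when 1 library was left out. Of the members 3 were called, and 1 or 2 when 1 library was left out, Gbp4 each time and Gbp8 without control library 2. Gbp4 kept its call under all 11 alternatives, and Gbp2 and Gbp3 each lost theirs under 6 of 11 with no change of sign. The 11 include the looser limit on the adjusted p, which could not end a call. The chromosome 3 sum, with a log2 ratio of -0.11, moved to -0.019 with library totals. The chromosome 5 sum, at 0.13, moved to 0.22 with library totals and to 0.10 with all Gbp genes of the cluster. Signs turned, for genes not called, in 4 when 1 library was left out, and the cause was not tested. Their log2 changes ranged from -0.0038 (without control library 2) to 0.17 for Gbp5, from -0.30 (without control library 1) to 0.61 for Gbp2b, from -0.043 (without control library 2) to 0.14 for Pggt1b and from -0.44 to 0.022 (without Acly-E14 siRNA library 1) for Fntb. Of 8 ranks by level, 8 were the same with GENCODE lengths.

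With the replicate number as a block, 4896 genes and 3 members were called, the members being Gbp2, Gbp3 and Gbp4. Libraries of the same number had deviations correlated at 0.144 across genes, and with 2 libraries per group the numbers are not taken as pairs. A leave-out fit has 1 library in a group and assumes that it varies like the other group.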

Other observations

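Outside the GBPs, the dynamin superfamily holds other GTPases that shape membranes. Of 13 tested, 5 were lower and 1 higher, where 15.9% and 17.3% of all tested genes were. The median log2 change was -0.15. The antiviral genes Mx1 and Mx2, which interferons also induce, had log2 changes of -0.34 and -0.34 (edgeR adjusted p = 0.0098 and 0.0059). Mx2 went from 460 and 457 CPM in controls to 368 and 357 CPM, and its call was made under every alternative run. Mx1 did not pass after removal of control library 1 (0.063) or of library 2 with Acly-E14 siRNA (0.057). Ehd4 (-0.25) did not pass without either control library (0.079 and 0.068) or without library 2 with Acly-E14 siRNA (0.078). Atl3 (-0.28), an atlastin of the endoplasmic reticulum, did not pass without control library 1 (0.091) or without either library of the Acly-E14 siRNA group (0.065 and 0.072). The gene called higher, Dnm1, was chosen after its values were seen and had 40 and 54 counts in controls against 96 and 125. Without control library 1 or Acly-E14 siRNA library 2, 1 gene of the list was called in each case.

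Likeness to the members was measured as the root mean square difference of centred log2 CPM over the 4 libraries, among 88 other genes of the family and the lists. The nearest gene to Gbp2 was Zmpste24 (0.021). The nearest to Gbp5 was its neighbour Gbp7 (0.028). For Gbp3 it was Ehd4 (0.030), for Gbp6 Jak2 (0.030), for Gbp7 Icmt (0.019) and for Gbp9 Gsdmd (0.017). The nearest genes to Gbp4 and Gbp8 were farther off, Socs3 at 0.13 and Mfn1 at 0.17. All distances rest on the same 4 libraries, so each includes the group difference.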
